A study of Mus musculus with 31 samples.

Results

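The 10 genes described here encode lysosomal cathepsins that liver RNA contains: Ctsa, Ctsb, Ctsc, Ctsd, Ctsf, Ctsh, Ctsl, Ctso, Ctss and Ctsz. They were taken by gene symbol from the platform annotation, and each was read from the probe set whose mean over the arrays was highest. All 10 were among the 12890 genes tested, of 18147 genes with a probe set of 1 symbol, and 22 probe sets in all carried their symbols. Values are deposited log2 values, and differences are PF-04287881 minus vehicle in log2 units ± 1 standard error of the fitted model, with 95% intervals where given. A gene was called at a Benjamini-Hochberg adjusted p under 0.05 from limma over all tested genes.

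The study gave females of the inbred mouse strains WSB/EiJ, SM/J, NZW/LacJ and MA/MyJ, 4 in all, either sterile water, the vehicle, or PF-04287881, a candidate antibiotic. The dose was 600 mg/kg by gavage on 7 consecutive days, the mice were 8 to 10 weeks old when dosing began, and the left liver lobe was taken 24 hours after the last dose. No genetic modification is named for any group. Each strain had 4 vehicle and 4 treated animals with 1 array each, except WSB/EiJ, which had 3 treated animals after a gavage death. The series codes MA/MyJ and NZW/LacJ for vacuolation of Kupffer cells, the resident liver macrophages, and NZW/LacJ also for single cell necrosis. Both codes are attached to whole strains, so they cannot be told apart from other differences between these strains.

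One array, of WSB/EiJ treated animal 3, goes against its label. On a scale built from probe sets private to a strain, where the other strains lie near 0 and the strain itself near 1, it lay at 0.00231 for WSB/EiJ, whose other arrays lay at 0.714 to 1.14. On the NZW/LacJ scale it lay at 0.959, inside the range of 0.893 to 1.05 of the NZW/LacJ arrays. It is kept under its label, and values without it are given where its removal changed a call or a count. Of the liver cell markers, 12 of 14 tested hepatocyte genes were not called in the average effect, with a median difference of -0.02, and the mean log2 value of these genes lay between 13.4 and 13.7 on every array. Cps1, a urea cycle gene, was called higher in addition without the array in doubt (0.10, adjusted p = 0.00987).

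Cathepsins are the main proteases of the lysosome. They are made as inactive proenzymes, most of them are tagged with mannose 6-phosphate in the Golgi, and they mature in the acid lumen. Ctsa is a serine carboxypeptidase that also protects sialidase and beta-galactosidase in a complex. Ctsd is an aspartic protease. The others are papain-like cysteine proteases: Ctsb, Ctsl, Ctsf and Ctso cut within chains, although Ctsb can also trim their ends, Ctsh is mainly an aminopeptidase, Ctsc removes dipeptides and activates granule proteases, Ctsz is a carboxypeptidase, and Ctss, found mainly in antigen-presenting cells, trims the MHC class II invariant chain. In liver, hepatocytes, Kupffer cells and other cells all carry lysosomes, so the bulk RNA sums them, and more cells of a type cannot be told apart from more RNA per cell.

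Promoter sequences are shown for 3 cathepsins whose response patterns differ below. RefSeq's GRCm38.p6 promoter table, which covers 250 bases before to 50 after each start, held 9 entries for 8 of the 10 genes, all but Ctsb and Ctsh. Capitals mark CACGTG, the core of the element bound by TFEB, the transcription factor of lysosomal genes, and GAGGAA or its reverse complement, the core bound by the myeloid factor PU.1.
Ctsa, chr2:164833523-164833822, plus strand: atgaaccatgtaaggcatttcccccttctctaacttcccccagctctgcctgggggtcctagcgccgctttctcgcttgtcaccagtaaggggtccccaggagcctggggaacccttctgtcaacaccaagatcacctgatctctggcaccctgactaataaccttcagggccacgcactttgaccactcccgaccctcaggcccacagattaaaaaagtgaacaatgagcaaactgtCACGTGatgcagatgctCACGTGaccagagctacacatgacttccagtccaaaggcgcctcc
Ctsd, chr7:142387778-142388077, minus strand: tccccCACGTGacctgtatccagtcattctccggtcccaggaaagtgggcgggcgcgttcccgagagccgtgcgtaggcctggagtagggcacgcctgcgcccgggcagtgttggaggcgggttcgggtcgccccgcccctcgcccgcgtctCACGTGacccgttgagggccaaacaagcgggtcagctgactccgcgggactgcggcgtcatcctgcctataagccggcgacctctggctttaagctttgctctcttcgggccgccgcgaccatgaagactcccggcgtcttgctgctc
Ctss, chr3:95526536-95526835, plus strand: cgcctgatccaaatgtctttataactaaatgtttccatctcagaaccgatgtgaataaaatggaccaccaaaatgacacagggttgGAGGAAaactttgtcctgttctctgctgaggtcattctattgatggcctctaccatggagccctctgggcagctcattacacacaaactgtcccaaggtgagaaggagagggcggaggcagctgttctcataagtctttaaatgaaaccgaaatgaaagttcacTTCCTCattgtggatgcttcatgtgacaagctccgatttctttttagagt
CACGTG, searched on both strands, lay in 4 of the 9 promoters and in 7.15% of all 32851 promoters of this length. Ctsa held it at 2 places, 12 bases before and 5 bases after its annotated start, and both stretches read TCACGTGA. That longer word also lay in the Ctsd window, 99 bases before the start, and so in 2 of the 9 promoters and 0.974% of all. The window of the other annotated Ctsa start held neither. Ctsd held CACGTG 245 and 98 bases before its start, Ctsf 79 bases before and Ctsl 236 bases before. GAGGAA was found in 2 of the 9, Ctss and Ctsc, and in 28.3% of all promoters. Longer GAGGAAGT was also found in these 2 and in 3.2% of all promoters. The 3 windows printed above all hold a marked word, while those of Ctsz and Ctso held neither CACGTG nor GAGGAA. A match describes letters in this window and does not show that a factor binds there.

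Treatment raised 6 of the 10 cathepsins in the mean of the 4 strains and lowered 1. Over all tested genes 13.3% were called higher and 8.92% lower. Ctss, Ctsa, Ctsb, Ctsz, Ctsd and Ctsl rose, Ctsc fell, and Ctso, Ctsh and Ctsf were not called. The median difference of the 10 genes was 0.20, against 0.00 for all tested genes. The same counts were obtained without the array in doubt, when 18.4% of tested genes were called higher and 14.2% lower.

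**Figure D1:**
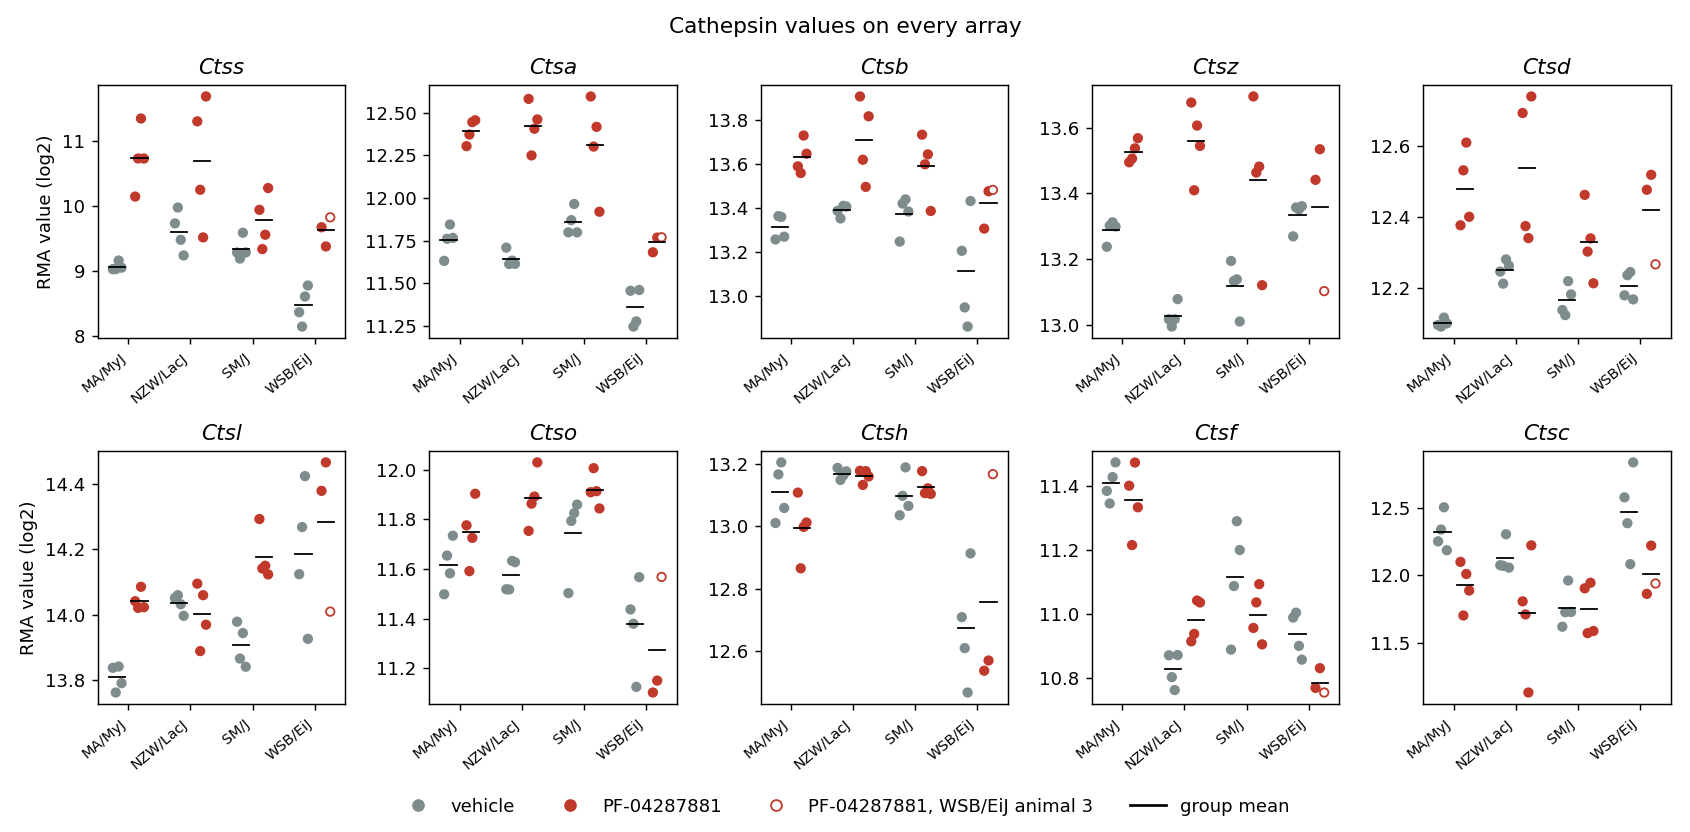
Deposited log2 value of each cathepsin on each of the 31 arrays, by strain; grey points are vehicle animals, red points treated animals, the open point the array in doubt and bars group means. Treated Ctsa lies above all vehicle animals in 3 of the 4 strains, while treated Ctss spreads most in NZW/LacJ.

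Ctsa, the serine carboxypeptidase, was the cathepsin called higher in every strain, as were 0.147% of tested genes. In MA/MyJ the vehicle animals read 11.63, 11.76, 11.85 and 11.77, and the treated animals 12.30, 12.37, 12.44 and 12.45. NZW/LacJ vehicle animals read 11.71, 11.61, 11.63 and 11.61, and treated animals 12.58, 12.25, 12.41 and 12.46. The groups did not overlap in these strains. SM/J vehicle animals read 11.80, 11.87, 11.97 and 11.80 against 12.59, 12.30, 12.42 and 11.92, and treated animal 4 fell inside the vehicle range. In WSB/EiJ the vehicle values were 11.46, 11.25, 11.28 and 11.46 and the treated values 11.68, 11.77 and, for the array in doubt, 11.77, all above the vehicle animals. The difference was 0.78 ± 0.10 in NZW/LacJ (adjusted p = 2.84e-06) and 0.64 ± 0.10 in MA/MyJ (adjusted p = 0.000185). In SM/J it was 0.45 ± 0.10 (adjusted p = 0.0104), and in WSB/EiJ 0.38 ± 0.10 (adjusted p = 0.0115). A dimmer Ctsa probe set, with a mean of 7.81, rose by 0.16 on average. The average rise was 0.56 ± 0.05, a fold of 1.48, with adjusted p = 1.09e-08. Without the array in doubt it was still called higher in all 4 strains, as were 0.264% of tested genes. The SM/J call was lost without treated animal 1 (0.35, adjusted p = 0.0617) or animal 3 (0.41, adjusted p = 0.0527), and fits on the SM/J or WSB/EiJ groups alone called none of the 10 genes higher.

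Ctss, the cathepsin of antigen-presenting cells, had the largest average difference of the 10, 1.09 ± 0.16, a fold of 2.12, with adjusted p = 2.01e-05. MA/MyJ vehicle animals read 9.03, 9.03, 9.17 and 9.06, and treated animals 10.15, 10.73, 11.35 and 10.73, with no overlap. In NZW/LacJ the vehicle values were 9.74, 9.98, 9.48 and 9.24 and the treated values 11.31, 10.25, 9.52 and 11.69. Treated animal 3 lay inside the NZW/LacJ vehicle range while animal 4 was the highest of all arrays. SM/J vehicle animals read 9.29, 9.20, 9.59 and 9.29 and treated animals 9.94, 9.34, 9.56 and 10.28, so the groups overlapped. WSB/EiJ vehicle animals read 8.37, 8.15, 8.61 and 8.78, against 9.68, 9.38 and, for the array in doubt, 9.83, with no overlap. The difference was called in MA/MyJ (1.67 ± 0.31, adjusted p = 0.00173), NZW/LacJ (1.08 ± 0.31, adjusted p = 0.0128) and WSB/EiJ (1.15 ± 0.33, adjusted p = 0.0162), and not in SM/J (0.44 ± 0.31, adjusted p = 0.569). The WSB/EiJ difference was 1.05 ± 0.38 without the array in doubt (adjusted p = 0.0349). The NZW/LacJ call was lost without treated animal 1 (0.88, adjusted p = 0.0654) or animal 4 (0.75, adjusted p = 0.0796), and the WSB/EiJ call without treated animal 1 (1.13, adjusted p = 0.0627). The strain-by-treatment F test did not call Ctss (adjusted p = 0.183), so a difference between the strains' responses was not shown.

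Ctsd, the aspartic protease, rose by 0.26 ± 0.04 on average (adjusted p = 3.72e-05). MA/MyJ vehicle animals were close together at 12.09, 12.09, 12.11 and 12.10, and treated animals read 12.38, 12.53, 12.61 and 12.40. NZW/LacJ treated animals fell into a high and a low pair, 12.69 and 12.74 against 12.37 and 12.34, all above the vehicle animals at 12.25, 12.21, 12.28 and 12.26. It was called in MA/MyJ (0.38 ± 0.08) and NZW/LacJ (0.29 ± 0.08), and not in SM/J (0.16 ± 0.08). Leaving out either high NZW/LacJ animal, 1 or 4, ended the call there (0.24 and 0.22, adjusted p = 0.0517 and 0.0580). In WSB/EiJ the difference was 0.21 ± 0.09 (adjusted p = 0.0781) with the array in doubt, which read 12.27, and 0.29 ± 0.09 (adjusted p = 0.0157) without it.

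Ctsb rose by 0.29 ± 0.05 on average (adjusted p = 0.000152), and the 4 strain differences ran from 0.22 ± 0.10 in SM/J to 0.32 ± 0.10 in NZW/LacJ. It was called in NZW/LacJ (adjusted p = 0.0213) and, with all arrays, in WSB/EiJ (adjusted p = 0.0428, and 0.0818 without the array in doubt). WSB/EiJ vehicle animals spread from 12.86 to 13.43, wider than the 13.35 to 13.41 of NZW/LacJ, and the WSB/EiJ call was also lost without vehicle animal 1, 2 or 3 or treated animal 1 or 2 (0.23 to 0.37, adjusted p = 0.0504 to 0.132). That in NZW/LacJ was lost without vehicle animal 2 or treated animal 1 or 4 (0.26 to 0.31, adjusted p = 0.0535 to 0.0971). Of 5 Ctsb probe sets, 4 rose on average, by 0.19 to 0.55, and a dimmer one, with a mean of 7.38, gave -0.00.

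Ctsz, a carboxypeptidase, rose by 0.28 ± 0.05 on average (adjusted p = 7.74e-05). NZW/LacJ vehicle animals read 13.02, 12.99, 13.02 and 13.08 and treated animals 13.68, 13.41, 13.61 and 13.54, a difference of 0.53 ± 0.09 with adjusted p = 0.000119. In WSB/EiJ the difference was 0.02 ± 0.10: vehicle animals read 13.27, 13.36, 13.35 and 13.36, treated animals 13.44 and 13.53, and the array in doubt 13.10. Without that array the WSB/EiJ difference was 0.15 ± 0.10 (adjusted p = 0.242), and SM/J was called with 0.32 ± 0.08 (adjusted p = 0.0171). Among the 10 genes, the F test for a response differing by strain called Ctsz alone with all arrays (adjusted p = 0.0377), while 19.4% of tested genes were called. Without the array in doubt the adjusted p for Ctsz was 0.0655, and leaving out 9 of the 31 arrays in turn left none of the 10 genes called by this test. That F test then called Ctso (adjusted p = 0.0190), when 32.4% of tested genes were called. All 3 Ctsz probe sets rose, by 0.28 to 0.44.

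Ctsl and Ctso moved less. Ctsl rose by 0.14 ± 0.04 on average (adjusted p = 0.0205, and 0.0520 without WSB/EiJ treated animal 2). Its MA/MyJ animals did not overlap, at 13.84, 13.76, 13.84 and 13.79 against 14.04, 14.02, 14.09 and 14.02. In NZW/LacJ the difference was -0.03 ± 0.09, and the array in doubt read 14.01 against 14.38 and 14.47 in the other treated WSB/EiJ animals. Without it Ctsl was called in SM/J (0.27 ± 0.07) and WSB/EiJ (0.24 ± 0.09). Ctso was called higher in NZW/LacJ, where vehicle animals read 11.52, 11.52, 11.63 and 11.63 and treated animals 11.75, 11.86, 11.89 and 12.03, a difference of 0.31 ± 0.10 (adjusted p = 0.0283). That call was lost without vehicle animal 1 or 2 or treated animal 3 or 4 (0.26 to 0.31, adjusted p = 0.0519 to 0.1004). Ctso was called higher on average without WSB/EiJ vehicle animal 4 (0.14, adjusted p = 0.0418) or treated animal 1 (0.15, adjusted p = 0.0446), against 0.13 ± 0.05 (adjusted p = 0.0754) with them. Its WSB/EiJ difference was -0.10 ± 0.11, and -0.25 ± 0.11 without the array in doubt (adjusted p = 0.0791). The second Ctso probe set, which did not pass the filter on low values, gave -0.25 on average, opposite in sign. That of Ctsl passed it with a mean of 5.72, and its vehicle mean was 7.62 in MA/MyJ and 4.58 to 5.04 in the other strains. It gave 0.40 on average, with 1.07 in WSB/EiJ, 0.72 in MA/MyJ and -0.36 in NZW/LacJ.

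Ctsc, the dipeptidyl peptidase, fell by 0.32 on the log2 scale, with a standard error of 0.08 and adjusted p = 0.00718. MA/MyJ animals read 12.25, 12.34, 12.50 and 12.19 on vehicle and 12.10, 11.70, 12.01 and 11.89 on the drug, without overlap, and 6.09% of tested genes lay wholly below vehicle in that strain. NZW/LacJ vehicle animals read 12.08, 12.07, 12.30 and 12.06, and treated animals 11.81, 11.71, 11.14 and 12.22, so animal 4 overlapped. The strain differences were -0.39 ± 0.16, -0.41 ± 0.16 and -0.46 ± 0.18 in MA/MyJ, NZW/LacJ and WSB/EiJ and -0.01 ± 0.16 in SM/J, none of them called alone. Leaving out the array in doubt gave -0.43 ± 0.20 in WSB/EiJ (adjusted p = 0.111). The other Ctsc probe sets, both dimmer, gave -0.48 and -0.31. Sinusoidal endothelial genes also fell in the average effect, where 7 of 11 were called lower and none higher, with a median of -0.43. Of all tested genes 8.92% were called lower. In single strains the endothelial calls higher and lower were 1 and 0 in MA/MyJ, 1 and 2 in NZW/LacJ, 1 and 1 in WSB/EiJ and 0 and 0 in SM/J. The shares of tested genes called in each strain are given below. By strain the order differed from that of Ctsc. The endothelial median was -0.62 in SM/J, where Ctsc had -0.01, -0.37 in MA/MyJ and -0.26 in NZW/LacJ. In WSB/EiJ it was -0.19, and -0.42 without the array in doubt. The mean of the list ran from 8.71 to 8.96 across vehicle groups and 8.26 to 8.73 across treated groups. When the array in doubt was left out 7 fell and 1 rose, Stab2 (0.23, adjusted p = 0.0391). Their part in the Ctsc result was not tested. Ctsh had -0.00 ± 0.05, with an interval of -0.10 to 0.10, and Ctsf -0.04 ± 0.04, with an interval of -0.12 to 0.03. Neither was called in the average effect or in any strain. The Ctsf difference was 0.16 ± 0.07 in NZW/LacJ (adjusted p = 0.127), where all treated animals lay above vehicle, as for 22% of tested genes. In WSB/EiJ it was -0.15 ± 0.08 (adjusted p = 0.174), where all lay below. No share of tested genes wholly below vehicle is given for WSB/EiJ, so this separation is not read as particular to Ctsf.

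**Figure D2:**
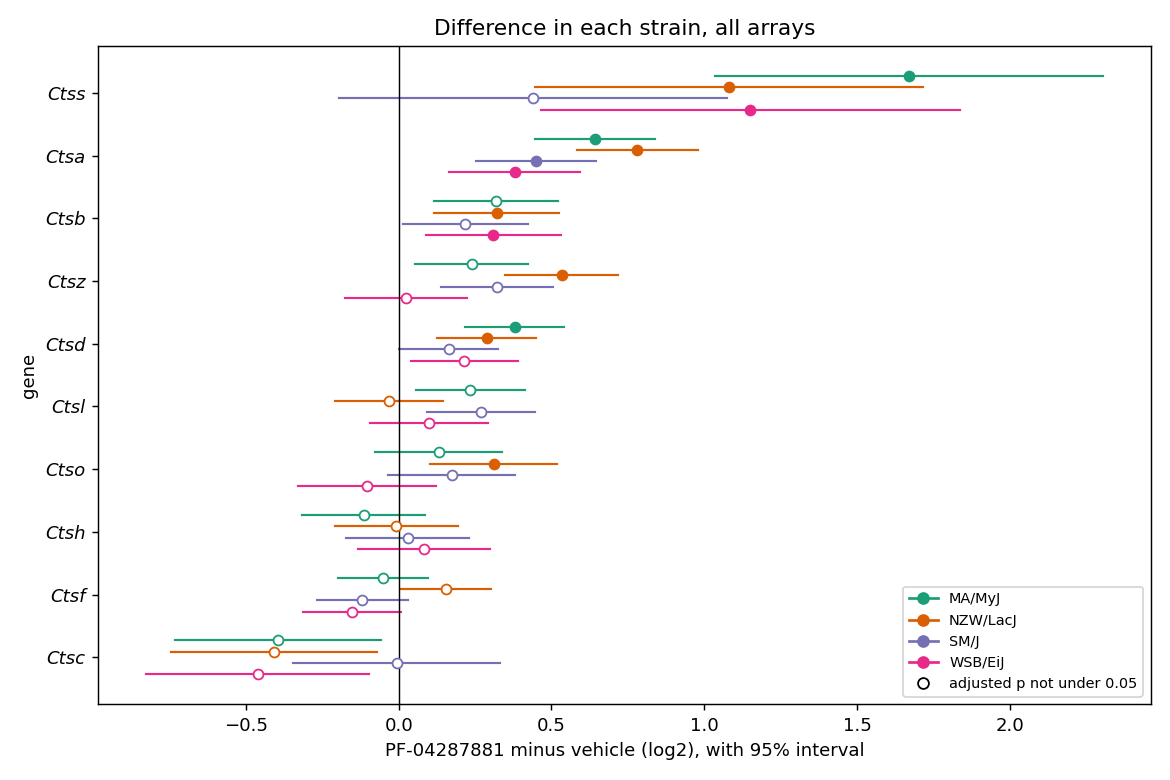
Difference between PF-04287881 and vehicle in log2 units for each cathepsin and strain over all 31 arrays, with 95% intervals; filled points were called. Ctsa is filled in all 4 strains and Ctss in 3, and no strain is filled for Ctsc, Ctsl, Ctsh or Ctsf.

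By strain, 6 of the 10 were called higher in NZW/LacJ, where 15.1% of tested genes were, namely Ctsa, Ctsb, Ctsd, Ctso, Ctss and Ctsz. In MA/MyJ the count was 3, Ctsa, Ctsd and Ctss, against 3.17% of tested genes. In WSB/EiJ it was also 3, Ctsa, Ctsb and Ctss, against 6.91%, and in SM/J it was 1, Ctsa, against 1.6%. No cathepsin was called lower in a strain, while 6.4% of tested genes were in NZW/LacJ, 0.978% in MA/MyJ, 12.4% in WSB/EiJ and 0.993% in SM/J. Without the array in doubt the counts higher were 6 in NZW/LacJ (18.3% of tested genes), 3 in MA/MyJ (5.21%), 4 in WSB/EiJ (13.8%) and 3 in SM/J (2.66%). The NZW/LacJ count was 3 without its treated animal 1 and 2 without animal 4, and the WSB/EiJ count was 1 without its treated animal 1. In SM/J it was 0 without treated animal 1 or 3, and 2 without SM/J treated animal 4, WSB/EiJ treated animal 1 or 2, or NZW/LacJ treated animal 2. All treated animals lay above all vehicle animals for 6 cathepsins in NZW/LacJ (22% of tested genes), 6 in MA/MyJ (10.7%), 3 in WSB/EiJ (6.31%) and 1 in SM/J (6.48%). The WSB/EiJ count was 4 without the array in doubt, against 17.8% of tested genes.

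The cathepsins were then set against macrophage content. A macrophage score, the mean log2 value of 18 genes such as Adgre1, Csf1r, Cd5l and the C1q genes, contained no cathepsin. Of these 18 genes, 14 rose in the average effect and none fell, with medians of 1.10 in MA/MyJ, 0.99 in WSB/EiJ, 0.69 in NZW/LacJ and 0.23 in SM/J. The count was also 14 and none without the array in doubt. The slope of each cathepsin on the score among animals of the same group was fitted over 30 arrays, without the array in doubt. Ctss was the 1 cathepsin called, with a slope of 1.30 ± 0.10 log2 units per unit of score (adjusted p = 3.02e-09), while 2.6% of tested genes had a called positive slope. Ctsc was called too without WSB/EiJ vehicle animal 3 (0.42, adjusted p = 0.0374), and Ctsd without SM/J treated animal 4 (0.20, adjusted p = 0.0442).

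Within groups, Ctss had a Pearson correlation of 0.94 with the score over the 30 arrays, and a Spearman correlation of 0.88. Ctsd had a Pearson correlation of 0.58 and Ctsc of 0.52, with Spearman correlations of 0.30 and 0.34, and Ctsb had 0.35 and 0.40. Pearson values of the others lay between -0.14 for Ctsz and 0.12 for Ctsa. Animals share the group mean and the array's RNA, and these values are descriptions. Ctsd had a higher value, 0.81, with markers of monocytes and lipid-associated macrophages such as Trem2, Lgals3 and Mmp12. That score was the mean of the 13 listed genes on the array, of which 11 passed the filter on low values. Trem2 was low throughout, with a mean of 6.37 and a highest value of 6.59. On that list the slope of Ctsd was 0.35 and called (adjusted p = 0.00391, where 3.1% of tested genes had a called positive slope), against 0.17 ± 0.06 on the macrophage score (adjusted p = 0.214).

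**Figure D3:**
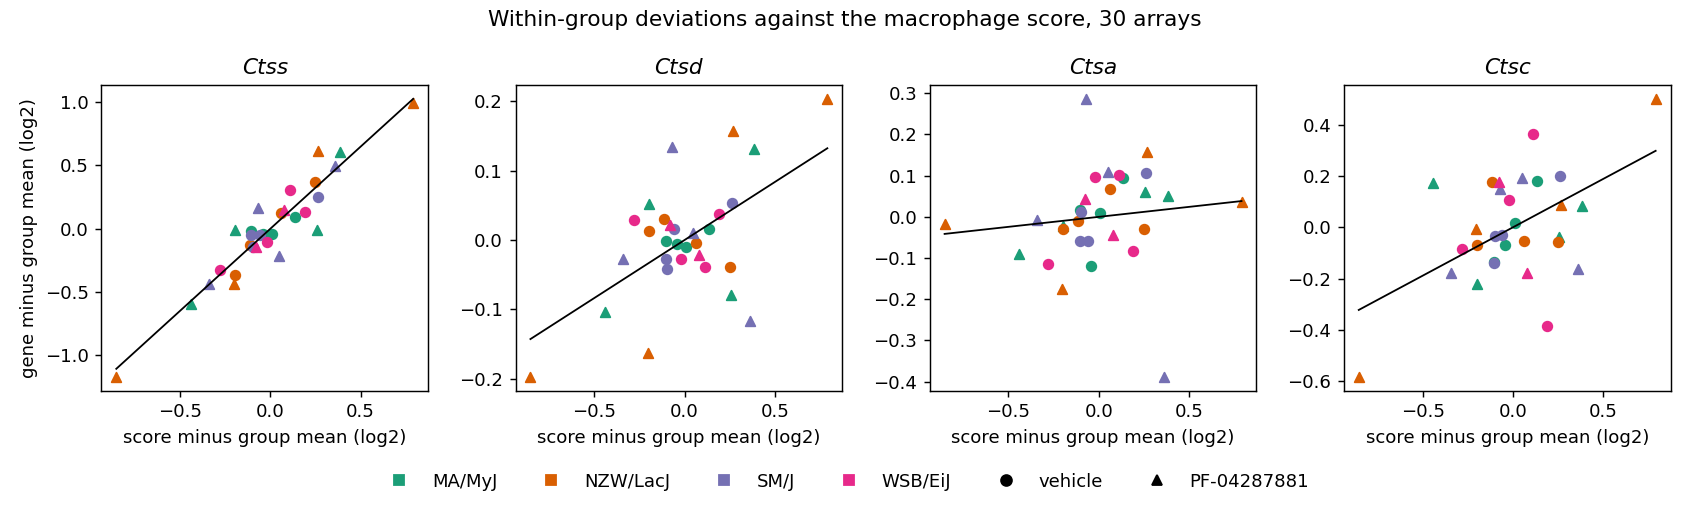
Deviation of Ctss, Ctsd, Ctsa and Ctsc from their group mean against that of the macrophage score, both in log2 units, on 30 arrays; circles are vehicle and triangles treated animals, colours mark strains and lines show the fitted slope. Ctss follows the line with a slope of 1.30, and Ctsa has a slope of 0.05.

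With the score in the fit, 4 cathepsins were called higher in the average effect and 1 lower, when 7.38% and 6.19% of tested genes were. Ctsa had a difference of 0.53 ± 0.08 (adjusted p = 7.09e-05), Ctsz had 0.34 ± 0.06, Ctsl 0.18 ± 0.06 and Ctsd 0.17 ± 0.05. Ctss had 0.23 ± 0.09 (adjusted p = 0.0790) and Ctsb 0.19 ± 0.07 (adjusted p = 0.0909), and neither was called. Ctsc had -0.55 ± 0.11 (adjusted p = 0.00200), further from 0 than without the score. The score itself rose with treatment, so this fit compares animals at equal marker level and does not assign RNA to a cell type. On all 31 arrays 2 cathepsins were called higher with the score in the fit, Ctsa and Ctsz, against 3.4% of tested genes. Ctsd (0.17 ± 0.06, adjusted p = 0.0808) and Ctsl (0.17 ± 0.07, adjusted p = 0.142) were not called in that fit.

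**Figure D4:**
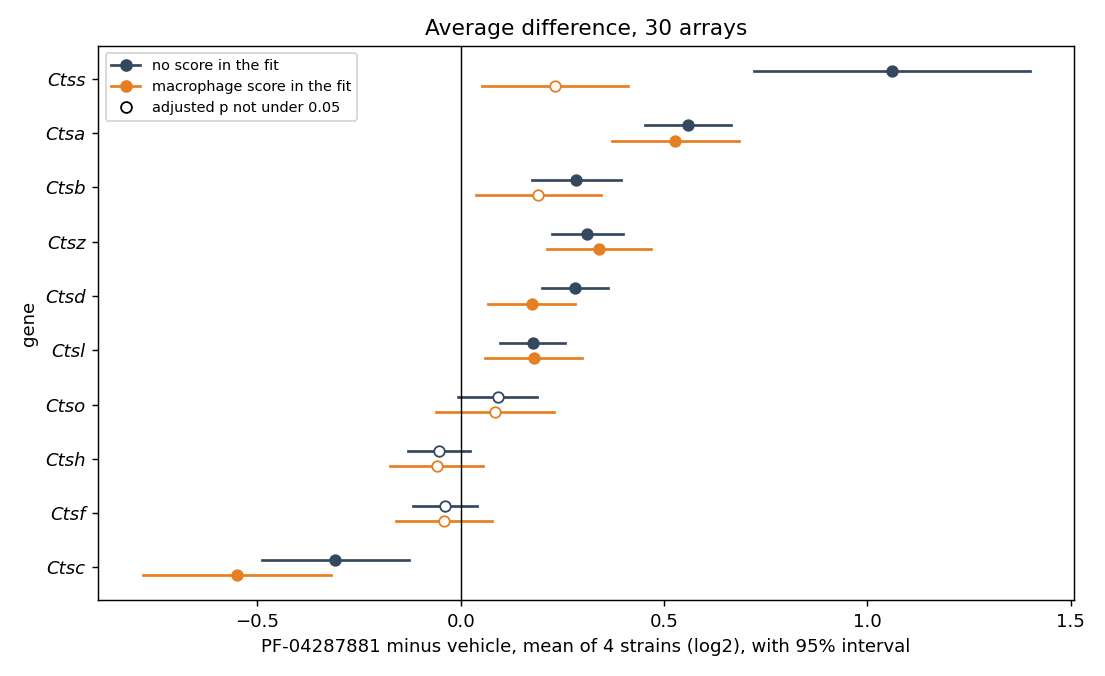
Average difference between PF-04287881 and vehicle in log2 units over 30 arrays, with 95% intervals, fitted without (dark) and with (orange) the macrophage score; filled points were called. The point of Ctss moves from 1.06 to 0.23, and that of Ctsa from 0.56 to 0.53.

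Vehicle levels differed between strains for 8 of the 10 cathepsins by the F test, all but Ctsb (adjusted p = 0.0608) and Ctsd (adjusted p = 0.347), as did 56.5% of tested genes. As single pairs, Ctsb was called higher in NZW/LacJ and in SM/J than in WSB/EiJ (adjusted p = 0.0295 and 0.0445). Ctsb probe sets with means of 9.02, 8.85 and 13.27 were also lowest in WSB/EiJ (F test adjusted p = 4.01e-05, 3.03e-05 and 0.0179). The one with a mean of 7.38 was not called (adjusted p = 0.239). Ctss ran from 9.61 in NZW/LacJ through 9.34 in SM/J and 9.07 in MA/MyJ to 8.48 in WSB/EiJ, and no neighbours in this order differed beyond their spread, while NZW/LacJ and SM/J were each called above WSB/EiJ (adjusted p = 0.00525 and 0.0333). The vehicle macrophage score had the means 8.77, 8.75, 8.26 and 7.72 in these strains. Ctsh was lower in WSB/EiJ, at 12.68, than in SM/J, at 13.10 (adjusted p = 0.00179), a pair of strains in which 32.9% of tested genes were called, and 13.11 in MA/MyJ and 13.17 in NZW/LacJ were not distinguished from SM/J in that order. The array in doubt read 13.17 for Ctsh, above the other WSB/EiJ animals, which read 12.47 to 12.91.

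Ctsf was highest in MA/MyJ, at 11.41, above SM/J at 11.12 (adjusted p = 0.00536, a pair with 16.9% of tested genes called), with WSB/EiJ at 10.94 and NZW/LacJ at 10.83 not separated from their neighbours. Ctsa was 11.86 in SM/J, 11.75 in MA/MyJ and 11.64 in NZW/LacJ, and lower in WSB/EiJ at 11.36 (adjusted p = 0.0228 against NZW/LacJ, a pair with 38.4% called). Ctsc ran the other way, from 12.47 in WSB/EiJ, 12.32 in MA/MyJ and 12.13 in NZW/LacJ to 11.76 in SM/J, with no neighbours separated, and 2 of the 6 strain pairs were called, SM/J below MA/MyJ and below WSB/EiJ. Ctsl, from 14.19 in WSB/EiJ to 13.81 in MA/MyJ, Ctsz, from 13.34 in WSB/EiJ to 13.03 in NZW/LacJ, and Ctso, from 11.75 in SM/J to 11.38 in WSB/EiJ, had no separated neighbours either. Further apart, Ctsl was called higher in WSB/EiJ than in SM/J or MA/MyJ, Ctsz lower in NZW/LacJ than in WSB/EiJ or MA/MyJ, and Ctso lower in WSB/EiJ than in SM/J. Of tested genes 28.1% were called between MA/MyJ and WSB/EiJ and 24.2% between MA/MyJ and NZW/LacJ. Over the 10 cathepsins 21 of 60 pairs were called. The shares of tested genes given here for single pairs ran from 16.9% to 38.4%, so this count is not read as particular to cathepsins. No share is given for NZW/LacJ against SM/J. Strain differences in the sequence under a probe can also change a reading, and this was not tested.

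The coded findings were compared as contrasts of responses. Ctsa rose more in the strains coded for vacuolation than in SM/J and WSB/EiJ, by 0.30 ± 0.10 (adjusted p = 0.0367), and 12.5% of tested genes were called in that direction. That call was lost on leaving out any of 13 single arrays. The vacuolation contrast of Ctss was 0.58 ± 0.31 (adjusted p = 0.218). In the strain coded for necrosis, the response exceeded the mean of the other strains by 0.34 ± 0.10 for Ctsz (adjusted p = 0.0279) and 0.26 ± 0.08 for Ctsf (adjusted p = 0.0324), where 11.3% of tested genes were called higher. Neither was called without NZW/LacJ vehicle animal 2 or 3 or treated animal 3, Ctsz was not called without vehicle animal 1 or treated animal 1, and Ctsf was not without treated animal 4. Without the array in doubt Ctso was also called in both contrasts, by 0.26 ± 0.09 and 0.29 ± 0.10, when 18% and 15.6% were called higher. Ctsl was then lower in the necrosis contrast, -0.28 ± 0.09 (adjusted p = 0.0221), as were 6.13% of tested genes.

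Over the 30 arrays, on values relative to the vehicle mean of the strain, the genes most like Ctss were Cd53, Itgb2 and Tyrobp, leukocyte genes, with correlations of 0.99, 0.98 and 0.98. Of these, Tyrobp is also a gene of the macrophage score. Those most like Ctsd were Cd68, a lysosomal glycoprotein of macrophages, Lgals3 and Pmp22, with 0.94, 0.93 and 0.93. Ctsa lay closest to Uap1l1, Tmem176b and Slpi, with 0.97, 0.96 and 0.95, and Ctsz to Vps35, a retromer subunit, P2rx4 and Rras, with 0.95, 0.95 and 0.94. Nearest to Ctsb were Mfsd1, Naglu and Siae, which are lysosomal genes, with 0.92, 0.90 and 0.90. Ctsc was most like Calcrl, Reck and Fam43a, with 0.83, 0.77 and 0.77. The remaining 4 genes had nearest correlations of 0.92 for Ctso with Acot13, 0.90 for Ctsl with Dmxl2, 0.84 for Ctsh with Adra1b and 0.77 for Ctsf with Htra2. Among the 45 pairs of cathepsins, correlations were taken within groups, on deviations from the group mean. They ran from -0.63, for Ctsl and Ctso, to 0.82, for Ctsa and Ctsz, with a median of 0.23. These are a different measure from the neighbour correlations above, which keep the treatment difference.

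Other genes of the pathway were counted in the average effect, in which 13.3% of tested genes were called higher and 8.92% lower (18.4% and 14.2% without the array in doubt). All 6 tested lysosomal peptidases outside the 10 rose, with a median of 0.31, among them Dpp7 (0.73), Lgmn, the legumain that processes cathepsins (0.58), Scpep1 (0.33) and Tpp1 (0.29). Of 8 tested inhibitors 5 rose and none fell: the cystatins Cstb (0.60) and Cst3 (0.22), Ctla2b (0.60), Serpinb6a (0.41) and Kng1 (0.13). The same peptidases and inhibitors were called without the array in doubt. Among 14 genes of mannose 6-phosphate tagging and sorting 6 rose and 1 fell, Lman2, at -0.21, and the rises included Gnptab, which builds the tag (0.31), and the sorting receptor Sort1 (0.27). On the 30 arrays without the one in doubt 6 rose and 2 fell: Scarb2 (-0.11, adjusted p = 0.0186) joined Lman2, Gga2 (0.45, adjusted p = 8.12e-05) was called and Gnptg (0.12, adjusted p = 0.0800) was not. Of 12 regulators of lysosomal genes 6 rose and none fell, including Rragd (1.10), Fnip2 (0.69), Fnip1 (0.54) and Rragc (0.35), which act in nutrient sensing at the lysosome, while Tfeb itself had 0.05. Zkscan3, a repressor of lysosomal genes, fell without the array in doubt (-0.20, adjusted p = 0.0145), when 6 rose and 1 fell. These regulator counts are of the average effect, and single strains differed for genes picked with their values in view. Ppp3cb was called lower in WSB/EiJ (-1.06, adjusted p = 1.19e-05) and higher in NZW/LacJ (0.54, adjusted p = 0.00317). Rragd had 1.85 in NZW/LacJ and 0.18, not called, in WSB/EiJ. Of 4 other cathepsins tested, Ctse, a non-lysosomal aspartic protease, fell by 0.58 on the log2 scale and none rose. Ctsk, the cathepsin of osteoclasts, was called higher without the array in doubt (0.17, adjusted p = 0.0476) beside the fall of Ctse.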

How the data were processed

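The deposited values are log2 values per probe set, which the authors made with Affymetrix Power Tools and RMA, per the submitters' processing notes. Versions, scan dates and detection calls are not given in the sources used here. RMA sets arrays to a shared distribution, so values are relative within an array.

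Of 44721 probe sets, 34728 carried 1 gene symbol, 872 several and 9121 none, and 34525 were matched by Entrez number to GRCm38.p6 names. Each gene was read from its brightest probe set by mean. Genes above the median of all values, 6.49, on at least 3 arrays were tested, which left 12890 and set 5257 aside as dim. limma 3.58.1 in R 4.3.3 (with data.table, version 1.17.8) fitted 8 group means to 31 arrays with eBayes, with 23 residual and 3.17 prior degrees of freedom. Tests were two-sided. Each p-value sets a difference against the spread between animals within groups, pooled over the 8 groups and moderated by eBayes. The number of arrays limits the precision. Scripts were tested on simulated data.

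All 10 cathepsins are named, and neighbours are the 3 genes with the highest correlation. For lists, up to 4 of the largest called genes are named, and any other gene beside a count of 5 or fewer was picked with its values in view. The genes and lists were chosen with earlier results of these data known. Animal numbers did not pair the samples: over 15 pairs of same-numbered animals, correlations of deviations ran from -0.52 to 0.41. Alternatives were the mean of all probe sets, no filter, an animal-number block, a variance trend, array weights, the macrophage score as a covariate, other scores, single-strain fits and leaving out each array.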

Additional observations from a re-analysis of the deposited data

Results flagged for a closer look

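Among 70 sets of 4 animals (a cathepsin in a group), 3 held an animal far from the others by Dixon's criterion, where chance flags about 1 in 20. These were Ctsc in an NZW/LacJ vehicle animal, at 12.30, Ctsl in a treated SM/J animal, at 14.29, and Ctsz in a WSB/EiJ vehicle animal, at 13.27. The interaction test called a response differing between strains for Ctsz (adjusted p = 0.0377, and 0.0655 without the array in doubt). Of tested genes 19.4% were called by it. The vacuolation contrast was called for Ctsa, at 0.30, and the necrosis contrast for Ctsf, at 0.26, and Ctsz, at 0.34. Each of these contrast calls was lost on leaving out some single arrays. The interaction test did not call Ctsa or Ctsf (adjusted p = 0.108 and 0.0990).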

How the results depend on the processing

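Counts are cathepsins called, of 10. The average effect gave 6 higher and 1 lower, and 7 and 1 with animal number as a replicate block. That block moved the calls of Ctso (average, now called) and Ctsb (WSB/EiJ, lost) and of no other cathepsin, and the numbers do not pair the animals. Of 610 values of single cathepsins under alternatives other than leaving out 1 array, 532 kept their side of the threshold, 44 gained a call, 32 lost one and 2 changed sign. A change of sign was counted whether or not the new value was called. Ctss in WSB/EiJ moved from 1.15 to -0.041 ± 0.15 with the macrophage score as a covariate, which was not called (adjusted p = 0.897). It moved to -0.000886 when the array in doubt was also left out. The last alternative was chosen after seeing the data.

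With the mean of all probe sets the counts moved to 1 lower in MA/MyJ and in WSB/EiJ, 2 higher in SM/J, 0 higher in the vacuolation contrast, 1 higher and 1 lower in the necrosis contrast, and 2 by the interaction test. A variance trend gave 2 higher in SM/J. Array weights gave 6 higher and 1 lower in MA/MyJ, 1 lower in NZW/LacJ, 5 higher in SM/J and in WSB/EiJ, 3 higher and 1 lower in the vacuolation contrast, 4 higher and 1 lower in the necrosis contrast, 5 by the interaction test and 4 slopes. They called 5280 genes in the average effect, against 2859, and 991 slopes, against 339. The macrophage score as a covariate gave 2 higher on average, 1 higher and 1 lower in MA/MyJ, 2 and 1 in NZW/LacJ, 2 higher in SM/J, 0 higher and 1 lower in WSB/EiJ, 2 higher in the vacuolation contrast and 0 by the interaction test, with 788 genes on average. Without the array in doubt it gave 1 and 1 in MA/MyJ, 3 and 1 in NZW/LacJ, 3 higher in SM/J, 0 and 1 in WSB/EiJ and 1 lower in the necrosis contrast, with 1749 genes on average. Monocyte and lipid-associated markers as the score gave 2 slopes. Fits on the 2 groups of a strain alone gave 6 higher and 1 lower in MA/MyJ and 0 higher in SM/J and WSB/EiJ, with fewer arrays for the spread. Other causes were not tested.

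Leaving out 1 array in turn gave 5 to 7 higher on average, 2 to 6 higher and 0 to 1 lower in NZW/LacJ, 0 to 3 higher in SM/J, 1 to 4 higher and 0 to 1 lower in WSB/EiJ, 0 to 2 higher in the vacuolation contrast, 0 to 3 higher and 0 to 1 lower in the necrosis contrast, 0 to 2 by the interaction test and 1 to 2 slopes. All-gene slope calls ran from 132 to 369, with 132 without NZW/LacJ treated animal 3 and 149 without animal 4, and the Ctss slope was called throughout. In MA/MyJ it gave 3 to 4 higher. RMA's signal over background was not given in the sources used here.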
